A study of Mus musculus with 4 samples.

Results

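Ly6c2+ MHC class II low monocytes were examined in the colon lamina propria of 4 male C57/Bl6N mice. They were chosen by 2 measured values: their level of Ly6c2 had to be at least 3 UMIs per 10000 (CP10k), and their summed level of H2-Aa, H2-Ab1 and H2-Eb1 below the median of all barcodes that passed the quality filters. A UMI is a molecular tag that counts each captured transcript once, and CP10k is 10000 times the UMIs of a gene divided by the total of the barcode. Of 4543 barcodes that passed the filters, 707 (15.6%) met the rule. DEP mice (DEP 11 and DEP 13) had been gavaged with 12 µg diesel exhaust particles in 200 µL PBS, on 5 days a week over about 6 months, and control mice (PBS 2 and PBS 3) with PBS alone. The labels name no allele in any of the 4 mice, and the sources used here do not give their age. Each mouse gave 1 library of sorted Cd11b+ cells that were also Ly6c2+ or Cd64+, made with the 3′ v2 chemistry of 10x Genomics.

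Monocytes are made in the bone marrow, circulate in blood, and enter tissues along chemokine gradients that their receptor CCR2 reads. In the gut wall, Ly6C-high monocytes continually replace a large part of the macrophage pool. On the way they lose Ly6C, gain MHC class II, the molecules that present peptides to helper T cells, and later take on resident macrophage genes such as those of complement C1q. The Ly6c2+ MHC class II low state is the earliest step of this series in tissue. The sort decides which cells could be seen, so shares below are shares of sorted cells.

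The population held 180 cells of DEP 11, 87 of DEP 13, 214 of PBS 2 and 226 of PBS 3. Their median depth was 4588.5, 5020, 5812 and 4377 UMIs per cell in the same order, and their UMIs summed to 828856, 414269, 1222090 and 944875. DEP 13 therefore gave the least precise values. The other barcodes comprised 126 with Ly6c2 above the limit and high MHC class II (50, 11, 41 and 24 per mouse) and 3710 with Ly6c2 below the limit. A total of 36 barcode sequences occurred in more than 1 mouse, and 3 of the 707 cells carried one. A doublet caller marked 61 of 4543 barcodes (1.34%), 3 of them in the population, and marked 4.57% of the barcodes of DEP 13 against 0.405% to 1.2% in the other mice.

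The values used by the rule are given as a description. Ly6c2 (ENSMUSG00000022584, mm10 chr15:75108158-75111970), which encodes the surface protein Ly6C2, had a median level of 7.86 CP10k, but 82 cells met the limit with 1 Ly6c2 UMI and 143 with 2. The lowest level inside the limit was 3.02 and the highest outside it was 2.99 CP10k. The summed MHC class II level reached 484.4 CP10k inside the limit and started at 485.1 outside it. Within 10% of that limit lay 57 cells of the population and 56 Ly6c2+ barcodes with high MHC class II.

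The label was set beside 4 monocyte genes that the rule did not use. They are markers of the label, chosen with earlier results of these data known, so they are no independent check. Chil3 encodes a chitinase-like lectin of myeloid cells, Hp the haemoglobin-binding protein haptoglobin, Plac8 a small cysteine-rich protein of monocytes, and Ifitm6 a member of the interferon-induced transmembrane family. At least 1 UMI of Chil3 was found in 60.7% of the cells, against 37.3% of Ly6c2+ MHC class II high barcodes and 32.7% of the barcodes with Ly6c2 below the limit. The shares were 62.9%, 31.0% and 27.8% for Hp, 97.0%, 87.3% and 81.7% for Plac8, and 70.6%, 25.4% and 21.7% for Ifitm6. Median depths were 4840, 5329 and 6300 UMIs, so the population was the shallowest of the classes. After every barcode was thinned to 1000 UMIs, the shares were 36.6%, 10.3% and 9.89% for Chil3, 31.1%, 8.73% and 8.27% for Hp, 88.0%, 60.3% and 36.8% for Plac8, and 36.4%, 3.97% and 6.5% for Ifitm6. In 80 barcodes with at least 20% immunoglobulin UMIs (median 20942 UMIs), a class of plasma cell RNA that should lack Chil3, Hp and Ifitm6, the thinned shares were 6.25%, 1.25%, 31.3% and 2.5%. Thinned shares in the population were above that background for the 4 genes. All 4 had a UMI in 261 cells, 3 of them in 226, 2 in 130, 1 in 77 and none in 13.

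Markers of lymphocytes and defining markers of neutrophils were rare in the population, while UMIs of plasma cell genes were found in nearly all cells. Of 12 neutrophil genes, 5 had a UMI. S100a9, Retnlg, Cxcr2, Camp, Ngp, Ltf and Mpo were at 0, and S100a8, the calprotectin gene that dominates neutrophil libraries, had 9 UMIs in all 707 cells. Csf3r, the receptor of a granulocyte growth factor, had 208 UMIs, the collagenase gene Mmp8 97, Mmp9 5 and Ly6g 2. Together 69 cells reached 2 UMIs of neutrophil genes and none reached 5, and the summed level was 0.908 to 1.0 CP10k in the population and 0.339 to 0.421 in all other barcodes. T cell genes reached 2 UMIs in 16 cells and B cell genes in 13, and no cell had 2 UMIs of eosinophil and mast cell genes. Of the dendritic cell lists, 251 cells reached 2 UMIs for plasmacytoid and 300 for conventional dendritic cells, but Siglech had 13 UMIs, Flt3 18, Clec9a 2 and Zbtb46 and Xcr1 0. The counts came mostly from Bst2 (745), an interferon-induced gene that is also in the type I interferon list, Sirpa (428) and Batf3 (365). The summed T cell level was 1.05 and 0.652 CP10k in DEP mice and 0.335 and 0.804 in PBS mice. Genes of plasma cells had 2 or more UMIs in 706 of the 707 cells and 5 or more in 695, at a summed level of 50.1, 60.5, 33.6 and 94.1 CP10k in DEP 11, DEP 13, PBS 2 and PBS 3. The level in all other barcodes of the same mice was 43.8, 70.5, 40.1 and 98.8, so these transcripts did not set the population apart. The patrolling monocyte genes, a list for the Ly6C-low blood monocyte, had a summed level of 5.37 to 6.37 CP10k against 2.67 to 3.22 in all other barcodes, higher in the population of every mouse, with most of it from Nr4a1 at 3.42 to 4.88, and Cd300e was at 0.

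The first question was whether cells of the population shared 1 state. Their MHC class II sum had a narrow mode below 200 CP10k in every mouse, and the other cells were spread from 200 up to the limit. Below 200 lay 155 of 226 cells in PBS 3 (68.6%), 129 of 214 in PBS 2 (60.3%), 59 of 87 in DEP 13 (67.8%) and 111 of 180 in DEP 11 (61.7%). The value of 200 was chosen after the values were seen. PBS mice averaged 64.4% ± 5.87 and DEP mice 64.7% ± 4.35 (SD, n = 2 each). These values come from a level that the rule used, so they are a description with no test. Median depth was 4820.5 UMIs below 200 and 4883 UMIs from 200 upwards, which are close.

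**Figure D1:**
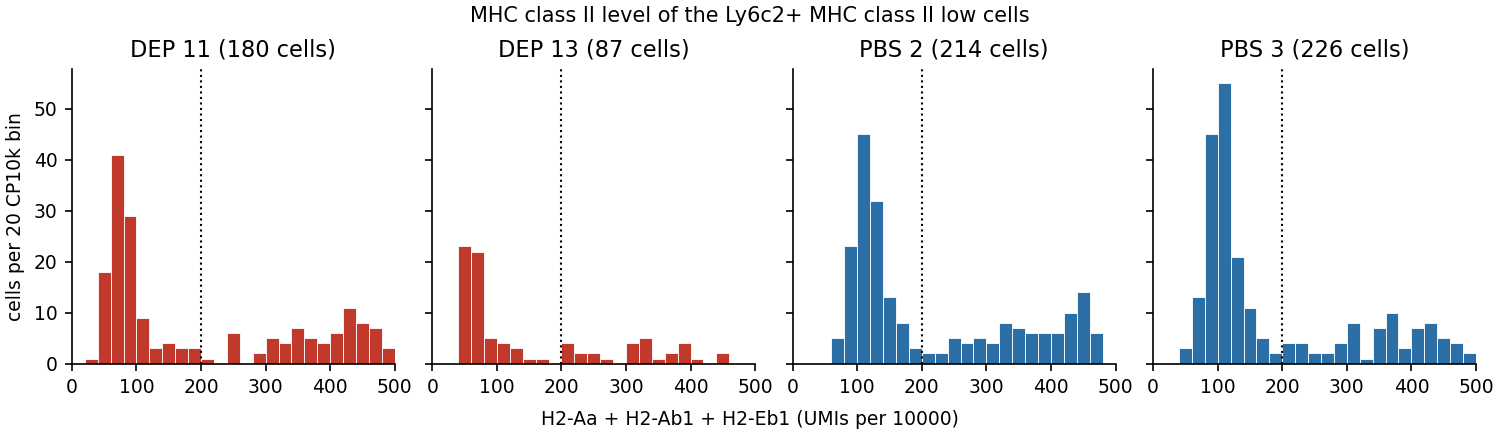
Histogram of the summed H2-Aa, H2-Ab1 and H2-Eb1 level (x axis, UMIs per 10000) of the Ly6c2+ MHC class II low cells of each mouse (y axis, cells per bin of 20), with DEP mice in red, PBS mice in blue and a dotted line at 200. Each mouse has a mode below 200 that holds 60.3% to 68.6% of its cells, and that mode lies lower in the DEP mice (medians 76.8 and 66.5) than in the PBS mice (115.7 and 106.2).

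Several monocyte genes were at a higher level in the low mode. Of 2773 genes compared, 22 (0.793%) were at least 2-fold higher below 200 than from 200 upwards in all 4 mice, and 5 (0.18%) were at least 2-fold lower. These genes come from the cells that were divided, and the counts are a description, with the 4 rule genes left out of the totals. Chil3 was at 12.2, 10.3, 17.2 and 11.3 CP10k below 200 in DEP 11, DEP 13, PBS 2 and PBS 3, and at 2.64, 3.08, 4.12 and 3.04 from 200 upwards. Ifitm6 was at 7.6, 7.17, 7.06 and 6.91 against 1.73, 1.23, 2.73 and 1.42. Both genes were higher in the low mode of every mouse, with no overlap between the sides. The same held for Hp and for Slpi, which encodes an inhibitor of leukocyte proteases. Fn1 (fibronectin), Anxa1 (the anti-inflammatory annexin A1), Cd177 (a neutrophil and monocyte surface protein), S100a4 (a calcium-binding protein of motile cells) and Mgst1 (a microsomal glutathione transferase) were also among the 22 genes.

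The 5 genes higher from 200 upwards were Cd74, Mgl2, H2-DMb1, Zfp36l1 and Aif1. Cd74 encodes the invariant chain that escorts MHC class II, and its level was 67.2, 62.1, 69.9 and 65.4 CP10k below 200 and 401.1, 358.6, 345.2 and 369.7 from 200 upwards in the order above. H2-DMb1, part of the H2-DM complex that loads peptide, was at 3.42 to 4.68 against 9.76 to 14.0 CP10k. Mgl2, a C-type lectin of macrophages and dendritic cells, was at 0.223 to 0.45 against 0.528 to 1.31. Divided instead into 3 bins of the MHC class II sum with 236, 235 and 236 cells, 54 of 3620 genes (1.49%) stepped down over the bins in all 4 mice and 33 (0.912%) stepped up. The low bin held 90 and 50 cells of DEP mice and 32 and 64 of PBS mice, the middle bin 22 and 15 against 99 and 99, and the high bin 68 and 22 against 83 and 63. Genes stepping down included Ifitm3, from a mean of 66.4 CP10k in the low bin to 32.5 in the high bin, and genes stepping up included Apoe, the lipid carrier of macrophages, from 81.6 to 178.4.

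The position of the low mode differed between mice together with the level of the same genes in barcodes under 500 UMIs, whose content was not tested. The median MHC class II sum below 200 was 76.8 and 66.5 CP10k in DEP 11 and DEP 13, and 115.7 and 106.2 in PBS 2 and PBS 3. The sum in barcodes under 500 UMIs was 167.8 and 122.8 in DEP mice, and 210.4 and 171.1 in PBS mice. It was above that of the low mode in every mouse. With full totals, Cd74 in the low mode was 66.5 and 61.5 in DEP mice and 69.0 and 64.6 in PBS mice, and overlapped between the groups. The part of free RNA in the position of the low mode was not tested.

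The next comparison set the population beside the most similar barcodes, those with Ly6c2 above the limit and high MHC class II. Since the rule divided the same cells, folds are a description. The 4 rule genes were left out of the totals, and a count below 3 UMIs was raised to a floor of 3 UMIs. Of 3620 genes with enough UMIs, 12 (0.331%) were at least 2-fold higher in the population in all 4 mice and 14 (0.387%) at least 2-fold lower. The higher genes were Ifitm6, Fn1, Mgst1, Hp, Slpi, Smpdl3a, S100a4, Chil3, Msrb1, Itgb7, S100a6 and Gsr. Ifitm6 (mm10 chr7:141015699-141017924) was at 5.3, 5.27, 5.34 and 5.24 CP10k in DEP 11, DEP 13, PBS 2 and PBS 3, against 0.871, 0.95, 0.739 and 0.999 in the Ly6c2+ MHC class II high barcodes. It was the most even of the marker genes over the mice. Chil3 (mm10 chr3:106147554-106167564) was at 8.44, 7.97, 12.0 and 8.77 against 3.0, 1.14, 1.48 and 0.726 CP10k. Mgst1, Gsr (glutathione reductase) and Msrb1 (a methionine sulfoxide reductase) serve redox defence, and their median log2 ratios over the mice were 2.33, 1.80 and 1.34. Itgb7, the integrin chain that takes part in homing to gut vessels, had a median log2 ratio of 1.27.

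The 14 lower genes were Sdc4, Cd74, Cxcl16, Pf4, Mgl2, C1qb, Bcl2a1b, C1qa, Clec10a, H2-DMb2, Tmem176a, C1qc, Mrc1 and Fcgr4. The complement genes C1qa, C1qb and C1qc encode the chains of C1q, which gut macrophages make in large amounts. C1qa was at 8.84, 6.8, 13.7 and 11.5 CP10k in the population and at 28.3, 31.7, 28.5 and 34.1 in the Ly6c2+ MHC class II high barcodes. Mrc1, the mannose receptor of mature macrophages, was at 0.443 to 0.586 against 1.18 to 1.9 CP10k. A C1qa UMI was present in 96.0% of the population, but after thinning in 60.1%, against 68.8% of the immunoglobulin-rich barcodes. Its thinned share in the population was thus not above that background. The recruitment receptor gene Ccr2 did not separate the 2 Ly6c2+ classes: it was at 8.71, 7.68, 7.23 and 7.23 CP10k in the population and at 10.1, 10.3, 6.96 and 6.17 in the other, which held 11 barcodes in DEP 13.

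**Figure D2:**
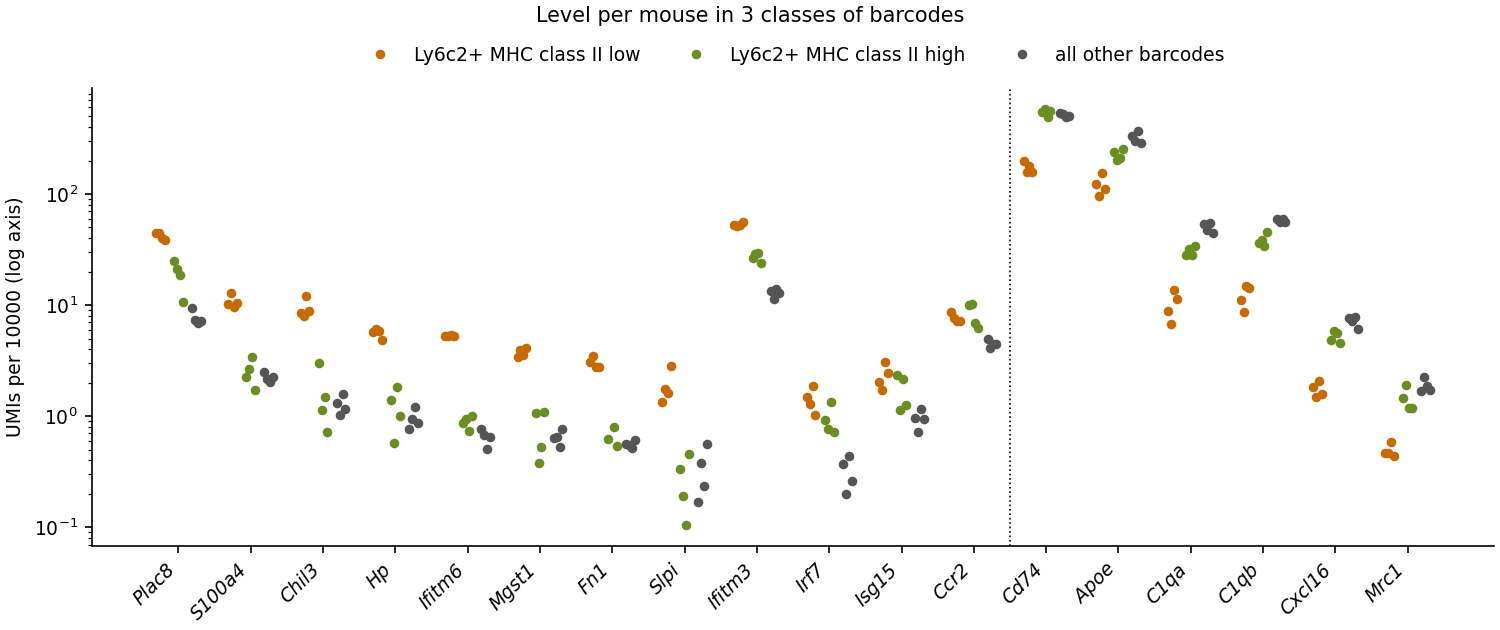
Level of 18 genes (y axis, UMIs per 10000, log axis) in the Ly6c2+ MHC class II low cells (orange), the Ly6c2+ MHC class II high barcodes (green) and all other barcodes (grey), 1 point per mouse, left to right DEP 11, DEP 13, PBS 2 and PBS 3; the level of 0 for Fn1 in the DEP 13 green class is not drawn. Left of the dotted line are genes at a higher level in the orange class than in the grey class of every mouse, and right of it genes at a lower level, such as Cd74.

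Against all other barcodes that passed the filters, which are mostly macrophages with little Ly6c2, 116 of 9286 genes (1.25%) were at least 2-fold higher in all 4 mice and 188 (2.02%) at least 2-fold lower. Of 22 measured genes of a monocyte identity list, 17 were higher and none lower, with a median log2 ratio of 2.13 beside −0.01 over all 9286 genes. The list was chosen with these cells known, so its direction is no independent evidence. Ly6c1, the neighbouring paralog of Ly6c2, was at 0.506, 0.491, 0.352 and 0.507 CP10k in the population and 0.0132 to 0.0334 elsewhere. The 2 genes are alike in sequence, and the sources used here do not say how reads shared between them were counted. Vcan (the matrix proteoglycan versican) was at 0.136, 0.27, 0.218 and 0.227 against 0.0192 to 0.0344. Padi4, whose enzyme citrullinates histones, was at 0.14 to 0.245 against 0.0119 to 0.0314. Plac8 (mm10 chr5:100553725-100572245) was at 44.9, 44.6, 40.0 and 38.3 against 9.44, 7.38, 6.95 and 7.14 CP10k. Ccr2 was higher in every mouse, but by less than 2-fold.

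Lower genes were led by Pmepa1, H2-M2, Basp1, Apol7c, Hpgds, Dnase1l3, Mmp13, Mmp12, Lag3 and Cd72. Mmp12 and Mmp13 encode metalloproteinases that cut elastin and collagen, and Mmp12 was at 0.0921 to 0.173 CP10k in the population against 0.66 to 0.929. Hpgds, the haematopoietic prostaglandin D synthase, was at 0.197 to 0.291 against 1.36 to 1.67. Cd72, a lectin-like receptor, was at 0.629, 0.442, 0.771 and 0.713 against 3.61, 4.16, 4.02 and 4.43. Of 22 resident macrophage genes, 15 were lower, beside 2.02% of all genes, and none higher (median log2 ratio −1.82). Among the lower genes were Mertk and Stab1, receptors for dying cells, and Vcam1. Of 26 cytokine and chemokine genes, 6 were lower (Il10, Ccl7, Ccl8, Ccl12, Cxcl1 and Cxcl16) and Ccl6 was higher. Ccl8 was at 0.851, 2.06, 0.963 and 0.766 CP10k against 5.85, 7.28, 4.22 and 3.46. Il10, the anti-inflammatory cytokine of gut macrophages, had 8, 1, 14 and 14 UMIs in the population and a UMI in 3.96% of its cells.

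Interferon-induced genes were a second group at a high level in the population. Of 37 measured genes of the type I interferon list, 11 were at least 2-fold higher than in all other barcodes in every mouse (Ifit1, Isg15, Isg20, Irf7, Ifi205, Ifi211, Ifi27l2a, Ifitm3, Usp18, Zbp1 and Slfn1), beside 1.25% of all genes, and none was lower, with a median log2 ratio of 1.21. Against the Ly6c2+ MHC class II high barcodes none of 30 passed the same limit, beside 0.331% of all genes, and the median was 0.34. Irf7, the transcription factor that amplifies interferon production, was at 1.5, 1.28, 1.87 and 1.04 CP10k against 0.375, 0.202, 0.437 and 0.259 in all other barcodes. Ifitm3, which blocks virus entry, was at 52.5, 52.0, 53.1 and 56.4 against 13.5, 11.4, 13.9 and 12.8. Isg15, a ubiquitin-like modifier, was at 2.05, 1.72, 3.1 and 2.47 against 0.959, 0.718, 1.15 and 0.946. Of 29 genes of the type II interferon list, none passed the limit in either direction (median 0.12).

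Isg15 and Ifit1 are shown as examples of the promoters of this group, since genes answering to interferon typically carry the interferon-stimulated response element. Bases before the annotated start are from RefSeq (GRCm38.p6), 5′ to 3′ on the strand of the gene, with matches to 2 copies of GAAA separated by any 2 bases, or to the reverse complement, in capitals. The Isg15 stretch is chr4:156200819-156201068 on the minus strand, where 3 matches overlap into 1 run, and the Ifit1 stretch is chr19:34640639-34640888 on the plus strand, with 2 matches.
Isg15: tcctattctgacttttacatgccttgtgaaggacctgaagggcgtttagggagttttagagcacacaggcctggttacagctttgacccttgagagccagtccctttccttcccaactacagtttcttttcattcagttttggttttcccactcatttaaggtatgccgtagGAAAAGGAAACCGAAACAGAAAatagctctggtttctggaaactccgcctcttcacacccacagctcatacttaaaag
Ifit1: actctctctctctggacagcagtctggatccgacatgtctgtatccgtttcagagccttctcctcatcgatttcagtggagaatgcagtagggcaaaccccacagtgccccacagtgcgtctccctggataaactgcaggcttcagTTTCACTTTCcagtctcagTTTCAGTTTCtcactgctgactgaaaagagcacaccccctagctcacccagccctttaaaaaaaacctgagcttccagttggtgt
Of the 11 interferon genes above, 8 had a promoter window of 250 bases before to 50 after the start, and 5 of the windows held the motif (62.5%). Over the whole list it was 19 of 32 (59.4%), and over all genes with a window 1079 of 27025 (3.99%). A match is a description of letters and does not show binding.

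The other lists differed in their distance from all other barcodes, beside 1.25% of all genes higher and 2.02% lower. Of the higher genes named here, Hp, Chil3, Itgb7, Gsr, Mgst1 and Clec4e are also in the monocyte identity list, so they are not separate results. Of 14 measured antimicrobial and acute phase genes, 5 were higher (Slpi, Lyz1, Hp, Prtn3 and Chil3), with a median log2 ratio of 0.81. Of 16 inflammasome, 16 glycolysis and 23 transcription factor genes none passed the limit. Among 19 proliferation genes, Stmn1 was lower (list median −0.96). Among 13 genes of MHC class II presentation outside the rule, Cd74, H2-Oa and H2-Ob were lower (median −0.74), and among 13 genes of the TGF-beta pathway, Tgfbr1 and Tgfbr2 were (median −0.68). Among 21 genes of adhesion and migration, 2 were higher, among them Itgb7, and Itgax, Pecam1 and C5ar1 were lower. Among 21 genes that answer to the aryl hydrocarbon receptor or to oxidative stress, Gsr and Mgst1 were higher, and among 16 pattern recognition genes Clec4e (the receptor Mincle) was. Among 23 tissue dissociation genes, Hspb1 was lower.

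The question of the design was whether DEP gavage altered this population. Among all barcodes that passed the filters its share was 17.3% in PBS 2 (15.2 to 19.5%) and 15.02% in PBS 3 (13.2 to 16.9%), beside 15.4% (13.4 to 17.6%) in DEP 11 and 13.7% (11.1 to 16.6%) in DEP 13. Brackets hold 95% Clopper-Pearson intervals, which cover counting error only. DEP 11 lay between the PBS mice, so the groups overlapped. PBS mice averaged 16.2% ± 1.62 and DEP mice 14.6% ± 1.22 (SD, n = 2 each), and the difference of −1.6 percentage points did not pass a two-sided exact permutation test (p = 0.667). With 2 mice per group the smallest p this test allows is 0.333. Of Ly6c2+ barcodes, the population made up 83.9% and 90.4% in PBS 2 and PBS 3, and 78.3% and 88.8% in DEP 11 and DEP 13. Of MHC class II low barcodes it made up 38.7% and 27.7% in PBS 2 and PBS 3, and 33.0% and 24.4% in DEP 11 and DEP 13 (exact permutation p = 0.667 for either share). Without the 403 cells that had 2 or more UMIs of genes of T cells, NK cells and ILC, B cells, neutrophils or plasmacytoid dendritic cells, the difference was 0.0414 points. The last list was reached by 251 cells, whose UMIs came mostly from Bst2.

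No gene passed an FDR of 5% between DEP and PBS mice when the UMIs of the population were summed per mouse and tested with edgeR's quasi-likelihood test. Of 5587 tested genes 0 were called (0%), 168 (3.01%) had an unadjusted p under 0.05, of which 74 (1.32%) were higher and 94 (1.68%) lower in DEP mice, and the smallest adjusted p was 0.0543. DESeq2 and limma voom called 0 genes and the edgeR likelihood ratio test called 2, Bag3 and Ccl7. With a mouse left out, a fit had 1 mouse in an arm, so its p-values do not measure the spread of that arm. Each such fit called plasma cell genes among others. These were Iglc1 without DEP 11, Iglc2 without DEP 13, Iglc1, Iglc2, Igkc and Jchain without PBS 2, and Igkc and Jchain without PBS 3. Both DEP mice were above both PBS mice in 15.2% of genes and below both in 14.1%. The median log2 fold change over all tested genes was −0.01. In bulk sums such as these, fewer cells of a state and less RNA per cell cannot be told apart.

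The genes with the smallest p in the lower direction were Ccl7, Bag3, Hspa1a, Dnajb1 and Gadd45g, and each failed the correction. With no gene filter each of them passed, as did genes of other cell types such as Iglc2, Cd8b1 and Car1. Ccl7 (ENSMUSG00000035373, mm10 chr11:82045712-82047525), a chemokine that recruits monocytes through CCR2, was at 1.37 and 1.45 CP10k in PBS 2 and PBS 3, but at 0.458 and 0.628 CP10k in DEP 11 and DEP 13. Both DEP mice were below both PBS mice, with a log2 fold change of −1.42 (SE 0.266, adjusted p = 0.0543). Without DEP 11, DEP 13, PBS 2 or PBS 3 the log2 fold change of Ccl7 was −1.13, −1.65, −1.52 and −1.34. Bag3 (ENSMUSG00000030847, mm10 chr7:128523616-128546981), a co-chaperone of HSP70 in protein quality control, rested on 7, 3, 43 and 57 UMIs, or 0.0845, 0.0724, 0.352 and 0.603 CP10k. Its groups did not overlap either, with a log2 fold change of −2.55 (SE 0.478, adjusted p = 0.0543). With a mouse left out, that value ranged from −2.94 to −2.08.

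Hspa1a (ENSMUSG00000091971, mm10 chr17:34969190-34972156), an inducible HSP70 chaperone, was at 13.2 and 15.1 CP10k in DEP mice and 30.2 and 22.6 in PBS mice (log2 fold change −0.90, SE 0.187, adjusted p = 0.138). Its near-identical copy Hspa1b can share reads with it. Dnajb1, the HSP40 partner of HSP70, was at 0.977 and 1.3 against 1.88 and 3.78 (log2 fold change −1.35, adjusted p = 0.17). Gadd45g, a growth arrest gene, was at 0.591 and 0.941 against 1.87 and 1.45 (log2 fold change −1.17, adjusted p = 0.198). In the 3 genes both DEP mice were below both PBS mice. With a mouse left out, the log2 fold change of Hspa1a ranged from −1.05 to −0.72. That of Dnajb1 was −0.71 without PBS 3 and ranged to −1.81. That of Gadd45g was −0.78 without DEP 11 and ranged to −1.52.

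Heat shock genes are driven by HSF1 through inverted repeats of GAA, so the stretches before the starts of Hspa1a and Hspb1 (a small heat shock protein, the tissue dissociation gene lower than in all other barcodes) are shown with matches to GAANNTTC, which reads the same on both strands, in capitals (RefSeq, GRCm38.p6). The Hspa1a stretch is chr17:34972157-34972406 on the minus strand with 1 match, and the Hspb1 stretch is chr5:135887669-135887918 on the plus strand with 2.
Hspa1a: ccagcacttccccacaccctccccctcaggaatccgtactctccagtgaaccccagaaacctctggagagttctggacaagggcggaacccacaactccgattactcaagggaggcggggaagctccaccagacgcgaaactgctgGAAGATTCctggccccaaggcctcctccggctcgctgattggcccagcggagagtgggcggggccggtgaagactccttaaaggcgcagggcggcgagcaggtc
Hspb1: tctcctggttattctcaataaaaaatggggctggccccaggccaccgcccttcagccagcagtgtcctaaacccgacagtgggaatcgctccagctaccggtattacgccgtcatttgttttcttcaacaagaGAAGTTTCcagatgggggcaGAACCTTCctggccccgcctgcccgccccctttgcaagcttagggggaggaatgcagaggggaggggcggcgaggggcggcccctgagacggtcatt
Of 7 heat shock genes of the list with a window, 6 held the motif (Hspa1a, Hspa1b, Hspb1, Dnaja1, Hsph1 and Bag3, in Bag3 and Hsph1 after the start), or 85.7%, against 1 of 12 immediate early genes (8.33%) and 2442 of 27025 genes (9.04%).

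The tissue dissociation list, immediate early and heat shock genes that rise when tissue is digested, had the lowest median of the 16 pathway lists between DEP and PBS mice, −0.47 over 22 tested genes. None passed an FDR of 5%, 11 had an unadjusted p under 0.05 in the lower direction, beside 1.68% of all genes, and none in the higher. In all other barcodes of the same mice the median of this list was also −0.47. Hsp90aa1, a cytosolic HSP90 chaperone, was at 6.39, 11.9, 10.998 and 23.4 CP10k in DEP 11, DEP 13, PBS 2 and PBS 3, so the groups overlapped (log2 fold change −0.93, adjusted p = 0.89). Hsp90aa1 was at a log2 fold change of −1.48 without DEP 13 and −1.40 without PBS 2, and passed with no gene filter (−0.98). The immediate early genes Fos and Junb had log2 fold changes of −0.21 and −0.23. Hspa1a in all other barcodes was at 12.8, 13.2, 26.2 and 21.0 CP10k, and Dnajb1 at 1.72, 2.55, 3.87 and 8.1, so the lower levels of DEP mice were found outside the population too. The labels give no time or batch of digestion, and its part in these values was not tested.

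**Figure D3:**
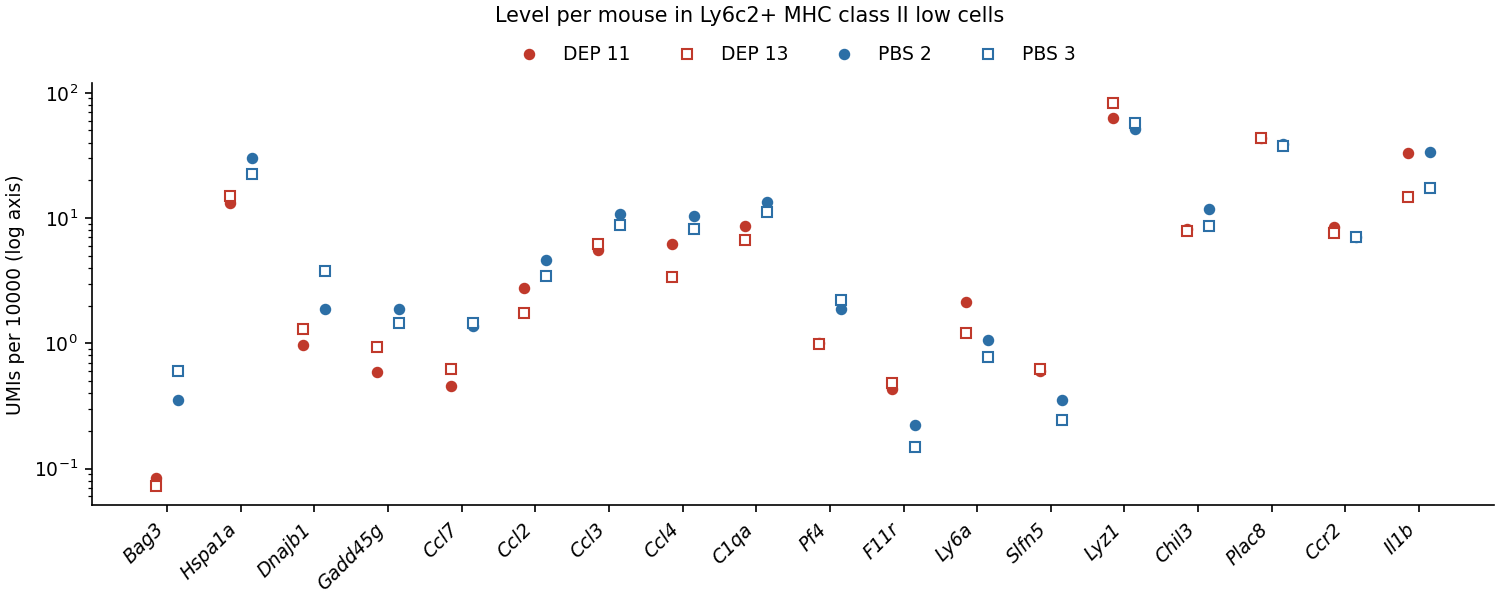
Level of 18 genes in the Ly6c2+ MHC class II low cells (y axis, UMIs per 10000, log axis) in DEP mice (red) and PBS mice (blue), 1 point per mouse. From Bag3 to Pf4 both DEP mice lie below both PBS mice, and from F11r to Lyz1 both lie above, but no gene shown passed an FDR of 5%.

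Among the 16 pathway lists, cytokine and chemokine genes had the next lowest median. Of 23 tested inflammatory cytokine and chemokine genes, 7 had an unadjusted p under 0.05 in the lower direction (Ccl2, Ccl3, Ccl4, Ccl7, Ccl12, Cxcl2 and Il1rn), beside 1.68% of all genes, and Ccl8 in the higher, beside 1.32%, and none passed an FDR of 5%. Ccl8 was at 0.832, 2.03, 0.941 and 0.751 CP10k in DEP 11, DEP 13, PBS 2 and PBS 3, so the groups overlapped and DEP 13 alone was high. These genes, and the genes of other lists given below by an unadjusted p, were named after their values were seen. The list median was −0.34, beside −0.07 for the same list in all other barcodes. Ccl4, a chemokine of activated macrophages, was at 6.26, 3.4, 10.5 and 8.19 CP10k (log2 fold change −0.94, adjusted p = 0.256). It was −1.42 without DEP 11, −0.79 without PBS 2 and −1.06 without PBS 3, and passed with no gene filter. Without PBS 3 the log2 fold changes of Ccl2, Ccl3 and Cxcl2 were −0.97, −0.83 and −0.82. Ccl3, a ligand of CCR1, was at 5.51, 6.2, 10.7 and 8.75 (log2 fold change −0.73, adjusted p = 0.417), and Ccl2, the main ligand of CCR2, at 2.76, 1.74, 4.6 and 3.42 (log2 fold change −0.81, adjusted p = 0.615). In each, both DEP mice were below both PBS mice. Il1b, which encodes the cytokine interleukin-1β, varied more within than between groups, at 32.8, 14.6, 33.9 and 17.4 CP10k (log2 fold change −0.11). Tnf was at 0.543 and 0.241 in DEP mice and 0.646 and 0.572 in PBS mice (log2 fold change −0.54, but −1.30 without DEP 11 and −0.20 without DEP 13), and Il18 at 0.362 and 0.41 against 0.581 and 0.381. The inflammasome genes Nlrp3, Pycard and Casp1 had log2 fold changes of −0.08, −0.09 and −0.26 with overlapping groups, and 0 of 14 tested genes of that list had an unadjusted p under 0.05.

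Of the genes of monocyte identity, the list median was near that of all genes. Of 22 tested, 0 had an unadjusted p under 0.05 in either direction and the median was 0.08. Ifitm6 was at 5.19, 5.19, 5.22 and 5.13 CP10k (log2 fold change 0.00), Plac8 at 43.9, 43.9, 39.1 and 37.5 (0.19), Hp at 5.6, 6.06, 5.69 and 4.72 (0.16), and Chil3 at 8.25, 7.85, 11.7 and 8.59 (−0.33). Chil3 was below the PBS mice in both DEP mice and Plac8 above them, and neither passed an FDR of 5%. Without PBS 2 the value of Chil3 was −0.14. Ccr2 was at 8.52, 7.56, 7.06 and 7.09 (0.18), and Lyz2, the macrophage lysozyme, at 509.5, 470.2, 478.8 and 494.6 (0.00). Nr4a1 and Klf2, transcription factors of patrolling and quiescent monocytes, had log2 fold changes of 0.01 and −0.47 (for Klf2 −0.11 without DEP 11 and −0.83 without DEP 13), and Ahr, the receptor that binds polycyclic aromatic compounds of exhaust, was at 0.362, 0.579, 0.818 and 0.318 CP10k (−0.36).

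The genes with the smallest p in the higher direction also failed the correction. Ly6a (mm10 chr15:74994877-74998031), which encodes the interferon-responsive surface protein Sca-1, was at 2.15, 1.21, 1.06 and 0.773 CP10k (log2 fold change 0.89, SE 0.259, adjusted p = 0.757). Its log2 fold change was 1.11 without PBS 2 and 0.42 without DEP 11. F11r, the junctional adhesion molecule A, was at 0.434, 0.483, 0.221 and 0.148 (log2 fold change 1.27, adjusted p = 0.757). In the cells below 200 CP10k of MHC class II alone, Ly6a and F11r had log2 fold changes of 0.22 and 0.54. Slfn5, an interferon-induced schlafen gene, was at 0.603, 0.628, 0.352 and 0.243 (log2 fold change 1.02, adjusted p = 0.947). Ift52, of the transport machinery of cilia, and Lrch4 had log2 fold changes of 1.46 and 1.07, the latter 0.72 without DEP 13. Lyz1, the second mouse lysozyme gene, was at 63.1, 83.4, 51.6 and 57.7 (log2 fold change 0.42), and was higher in DEP mice among all other barcodes too (0.54).

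**Figure D4:**
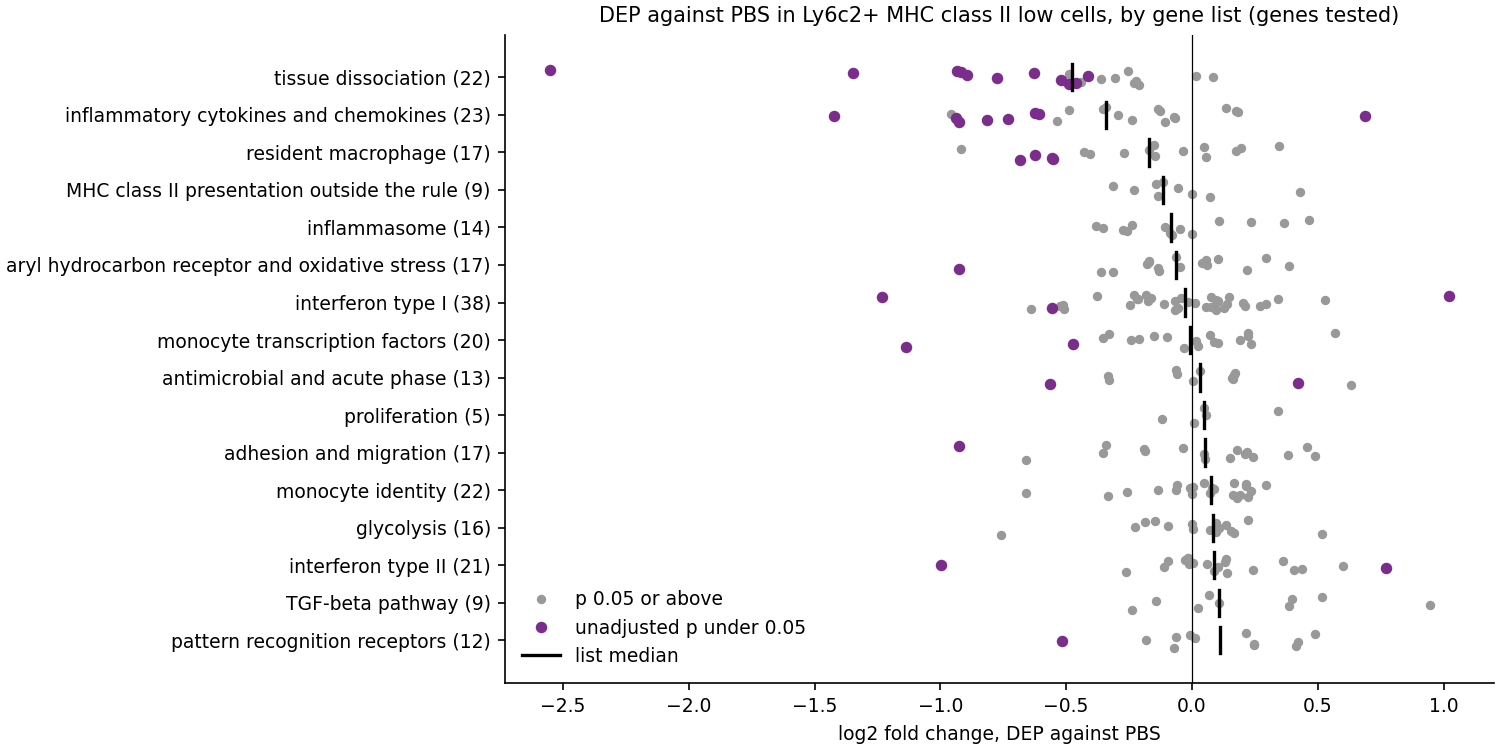
Log2 fold change between DEP and PBS mice (x axis) of the tested genes of 16 lists in the Ly6c2+ MHC class II low cells, with the number tested in brackets, purple points for an unadjusted p under 0.05, grey points for other genes and a black bar at the median. The tissue dissociation list (median −0.47, 11 genes with p under 0.05) and the cytokine and chemokine list (median −0.34, 8 genes) lie lowest, and no gene passed an FDR of 5%.

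Apart from the resident macrophage list, which is given in the next paragraph, the medians of the remaining lists lay between −0.11 and 0.11. None of their genes passed an FDR of 5%. Genes are named here for an unadjusted p under 0.05, which 1.32% of all genes had in the higher and 1.68% in the lower direction. Of 38 tested type I interferon genes these were Slfn5 in the higher and Isg15 and Herc6 in the lower direction (median −0.03), and of 21 type II interferon genes Igtp in the higher and Cxcl10 in the lower (median 0.09). Ifitm3, Ifi27l2a and Ly6e had log2 fold changes of −0.07, −0.17 and 0.08. Of 17 tested genes that answer to the aryl hydrocarbon receptor or to oxidative stress, Hmox1, which encodes the haem-degrading enzyme haem oxygenase 1, was named, at 1.09, 1.83, 2.07 and 3.31 CP10k (log2 fold change −0.93, adjusted p = 0.882, beside −0.93 among all other barcodes). Its log2 fold change was −1.35 without DEP 13 and −1.27 without PBS 2. Gpx1, Prdx1, Prdx5 and Txn1, which remove peroxides, had log2 fold changes between −0.18 and 0.11. Of 12 pattern recognition genes Cd14 was named in the lower direction (adjusted p = 0.999), of 17 adhesion and migration genes C5ar1 (adjusted p = 0.757), of 20 transcription factor genes Cebpa and Klf6 (adjusted p = 0.999 for each), and of 13 antimicrobial genes Slpi in the lower and Lyz1 in the higher (adjusted p = 0.999 for each). Without PBS 2 the log2 fold change of Slpi was −0.97, and without PBS 3 that of Cxcl10 was −1.50 and that of C5ar1 −1.12. None of the tested genes of MHC class II presentation outside the rule (9), glycolysis (16), proliferation (5) or the TGF-beta pathway (9) had an unadjusted p under 0.05.

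No resident macrophage gene passed an FDR of 5% between DEP and PBS mice in the population. Of 17 tested, 4 had an unadjusted p under 0.05 in the lower direction, beside 1.68% of all genes, namely C1qa, C1qb, C1qc and Cd63, with adjusted p-values from 0.615 upwards. Without PBS 3 the log2 fold change of C1qa was −0.76. The list median was −0.17 beside 0.05 in all other barcodes. A shorter list of resident macrophage markers, all of them also in the first list, had a median of −0.49 over 10 tested genes, beside 0.04 in all other barcodes. For 6 of the 10 both DEP mice were below both PBS mice, beside 14.1% of all genes. The first list also held 6 such genes, of 17 tested, so the shorter list is no separate result. Whether the DEP effect differed between classes of barcodes was tested as an interaction, with the mouse as a block. Against Ly6c2+ MHC class II high barcodes, 1 of 5587 genes (0.0179%) passed an FDR of 5%. The marker Chil3 did not, with a difference of −1.35 on the log2 scale (adjusted p = 0.0636). It passed in some alternatives, such as DESeq2 size factors (−1.39) and without doublets (−1.42), and missed in others. Against all other barcodes, a comparison added after the data were seen, 7 (0.125%) passed, all with a lower DEP effect in the population. These were C1qa, C1qb, C1qc, Pf4, Ccl3, Ms4a7 and Cd63, several of them macrophage genes, Pf4 encoding platelet factor 4, Ms4a7 a tetraspan membrane protein and Cd63 a lysosomal tetraspanin. The difference was −0.71 for C1qa (adjusted p = 0.000154) and −1.01 for Pf4 (adjusted p = 0.00356) on the log2 scale. None of these 7 genes passed against Ly6c2+ MHC class II high barcodes. In that class the log2 fold change between DEP and PBS mice was −0.87 for Ccl3, −0.75 for Pf4, −0.41 for Cd63 and −0.26 for Ms4a7. It was −0.12, −0.14 and −0.08 for C1qa, C1qb and C1qc.

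C1qa was at 8.84 and 6.8 CP10k in the population of DEP mice and at 13.7 and 11.5 in that of PBS mice, and at 53.9, 46.9, 54.8 and 44.4 in all other barcodes in the same order. In barcodes under 500 UMIs it was at 12.9 and 11.3 in DEP mice and 18.4 and 15.6 in PBS mice. DEP mice were thus below PBS mice in the population and in these shallow barcodes, and overlapped with them in the other barcodes. Pf4 was at 1.02 and 1.01 against 1.92 and 2.26 in the population, and at 2.93, 4.03, 3.78 and 2.9 in barcodes under 500 UMIs, where the groups overlapped. The part of free RNA in these differences was not tested.

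**Figure D5:**
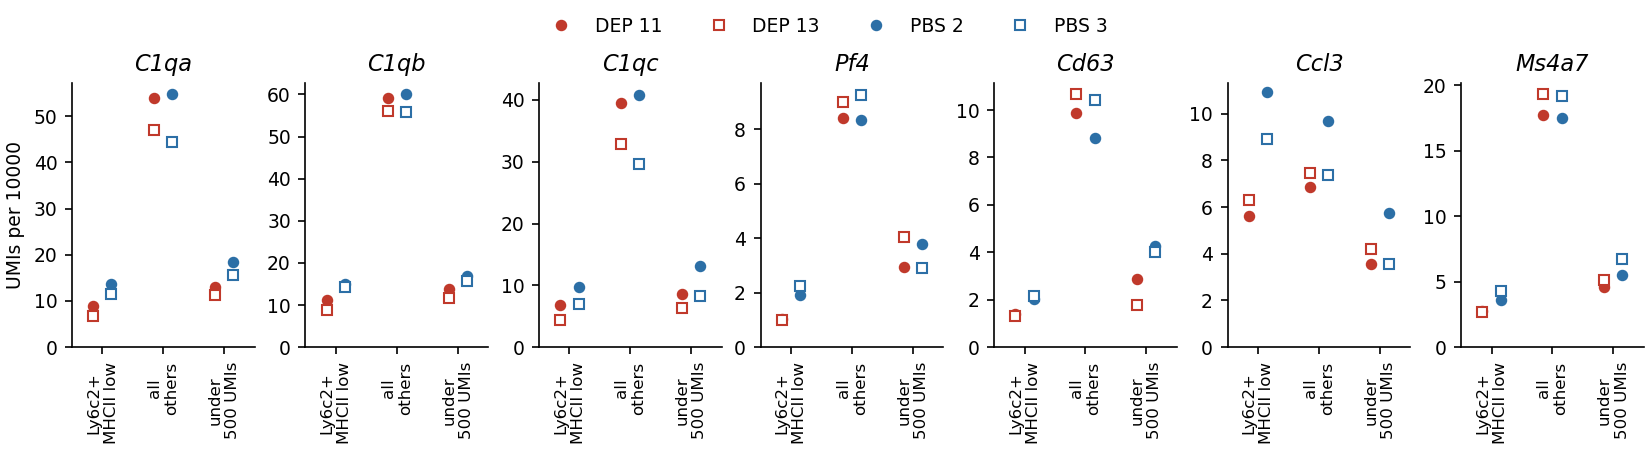
Level (y axis, UMIs per 10000, starting at 0) of 7 genes in the Ly6c2+ MHC class II low cells, in all other barcodes that passed the filters and in barcodes under 500 UMIs, 1 point per mouse (DEP red, PBS blue). In the first class both DEP mice lie below both PBS mice for each gene, and in barcodes under 500 UMIs this holds for C1qa, C1qb, Cd63 and Ms4a7 but not for C1qc, Pf4 and Ccl3.

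The gene called against Ly6c2+ MHC class II high barcodes was Saa3 (mm10 chr7:46711998-46715700), an acute phase serum amyloid. It had 43, 134, 267 and 8 UMIs in the population of DEP 11, DEP 13, PBS 2 and PBS 3, or 0.53, 3.29, 2.24 and 0.0864 CP10k, and 0, 0, 49 and 0 UMIs in the Ly6c2+ MHC class II high barcodes. The fitted difference of 8.46 (SE 1.59, adjusted p = 0.00065) thus rested on UMIs of PBS 2, and without PBS 2 it was 3.61 and did not pass. It also failed without DEP 13 (7.58, adjusted p = 0.209), by the DESeq2 Wald test, with Ly6c2 from 2 or from 5 CP10k, with the MHC class II median of each mouse, below the 25th percentile and in the cells below 200 CP10k. Between DEP and PBS mice in the population Saa3 had a log2 fold change of 0.63, and its level varied more between mice of a group than between groups. Without PBS 2, which left PBS 3 as the only PBS mouse, the log2 fold change was 4.28.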

How the data were processed

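The authors deposited 1 table of UMI counts, whole numbers per gene and barcode (28692 genes, 6954 barcodes), as counted and with no scaling. Cell Ranger, STAR 2.6.1a, R 3.5.1 and the build mm10 are listed in the submitters' processing notes. For the Cell Ranger version and the annotation, the sources used here give nothing. The mouse of a barcode was read from its suffix. Barcodes with at least 1000 UMIs, at least 317 genes, at most 7% mitochondrial UMIs and under 20% immunoglobulin UMIs were kept. Symbols were matched for 28416 genes.

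UMIs were summed per mouse and tested with edgeR 4.0.16 in R 4.3.3 (TMM, quasi-likelihood, genes above 1 CPM in at least 2 mice and with a UMI in 5% of cells, Benjamini-Hochberg FDR of 5%, 2 residual degrees of freedom). The 4 rule genes were left out of calls. The difference of the DEP effect between classes was fitted with the mouse as a block. Scripts were tested on simulated data. Shares were compared by exact permutation over 6 assignments. Alternatives used DESeq2 1.42.0 and limma 3.58.1, doublets scanpy 1.11.5, intervals scipy 1.17.1. Levels of the population against other barcodes have the rule genes left out of the totals, so they differ slightly from levels in the DEP comparison. Folds required at least 10 UMIs in every mouse of the higher class.

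The members and lists were chosen with earlier results of these data known. Named genes were the markers, the 5 genes of smallest p per direction where none passed (up to 10 where some did), up to 15 genes per direction by their smallest ratio over the mice, up to 4 genes of highest level per list, and Ccr2, Nlrp3, Pycard, Casp1, Il1b, Il18, Il10, Tnf, Ahr, Nr4a1 and Klf2. 1 further gene of this rule is not reported here.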

Additional observations from a re-analysis of the deposited data

Results flagged for a closer look

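The DEP effect differed between the Ly6c2+ MHC class II low cells and other barcodes for 8 genes, by an interaction term in edgeR's quasi-likelihood test with the mouse as a block. Against Ly6c2+ MHC class II high barcodes this was Saa3, with a difference of 8.46 on the log2 scale, which rested on 49 UMIs of PBS 2 in the latter class and depends on the prior count, so that it is no bound. Against all other barcodes the differences were −0.71 for C1qa, −0.54 for C1qb, −0.59 for C1qc, −1.01 for Pf4, −0.70 for Cd63, −0.49 for Ccl3 and −0.54 for Ms4a7. None of the 7 passed against Ly6c2+ MHC class II high barcodes, where their log2 fold changes between DEP and PBS mice ran from −0.87 (Ccl3) to −0.08 (C1qc). For each of the 7 genes the population was lower in both DEP mice than in both PBS mice. In barcodes under 500 UMIs the same order was seen for C1qa, C1qb, Cd63 and Ms4a7, and the part of free RNA was not tested. The comparison against all other barcodes was not run without each mouse in turn.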

How the results depend on the processing

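The DEP mice averaged a smaller share of Ly6c2+ MHC class II low cells under 14 of 15 alternatives, and the difference of −1.6 points ranged from −2.75 to −0.454 with a mouse left out and was 0.0414 without members with UMIs of other cell types. Genes called between DEP and PBS mice numbered 0 under 15 alternatives, 2 by the edgeR likelihood ratio test, 15 with no gene filter, and between 3 (without DEP 11) and 22 (without PBS 2) with a mouse left out, where a fit had 1 mouse in an arm, assumed to vary like the others. The calls of the difference against Ly6c2+ MHC class II high barcodes (1 gene) were 6 with DESeq2 size factors, 0 by the DESeq2 Wald test, 3 by the likelihood ratio test, 0 and 7 with Ly6c2 from 5 and from 2 CP10k, 0 with MHC class II below the 25th percentile, 3 with the median of each mouse, 3 with mitochondrial UMIs up to 5%, 3 without members with UMIs of other cell types, 4 without doublets, 0 after thinning to 1000 UMIs, 3 without members with T or B cell UMIs, 7 against all other barcodes, and between 1 and 5 with a mouse left out. The cause of these changes was not tested. Alternatives with T or B cell UMIs, shared barcodes, the limit of 200 CP10k and all other barcodes were chosen after seeing the data. Of single genes, 462 values kept direction and side of the threshold, 19 passed it in place of missing it, 7 missed it in place of passing, and 27 changed sign. Ifitm6, near 0, was 0.000599 with DESeq2 size factors, 0.000482 with DESeq2, 0.0272 and 0.169 with Ly6c2 from 5 and 2 CP10k, 0.0662 below the 25th percentile, 0.112 without other cell types, 0.0265 without doublets, 0.0705 thinned, 0.0375 without T or B cell UMIs, 0.0793 below 200 CP10k, and −0.0333 to 0.0341 with a mouse left out. Nlrp3 was 0.0856 with Ly6c2 from 2 CP10k and 0.0757 without other cell types. Nr4a1 was −0.0226 with no filter, −0.0595 without other cell types, −0.172 thinned and −0.0220 without T or B cell UMIs. The Saa3 difference was −0.316 below the 25th percentile. With a mouse left out, ranges were −0.486 to 0.123 for Nlrp3, −0.195 to 0.0283 for Pycard, −0.501 to 0.0246 for Casp1, −0.766 to 0.398 for Il1b, −0.838 to 0.439 for Ahr, −0.177 to 0.247 for Nr4a1 and 3.61 to 10.0 for Saa3. No paired analysis was possible because the DEP and PBS mice share no replicate number. With 2 mice per group and 87 cells in DEP 13, low genes such as Bag3 rest on few UMIs.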
